A study of Arabidopsis thaliana with 26 samples.

Results

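AT1G19960, AT1G15640, AT5G41280 and AT4G14390 are 4 genes of Arabidopsis thaliana that the reference annotation (TAIR10.1) lists as protein-coding under their locus tags alone, with no symbol. They were chosen from their levels in cells given salicylic acid (SA), where their signal was high, and each is read by 1 probe set of the 22746 on the array. Their values with SA, with SA and abscisic acid together, and at 24 h against 3 h are what they were chosen on. Those values are therefore described here and not tested. For these 4 genes, tests were kept to comparisons in which no array had received SA according to its title. Those comparisons use the same ethanol control arrays that the SA levels are set against. They are therefore not wholly free of the choice of genes.

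The study measured transcript levels on 26 single-channel arrays of T87 cells, a suspension line grown in shaken flasks, 1 line for all groups. Cells had received 25 µM abscisic acid (ABA) with 300 µM SA, SA alone at 300 µM, ABA with 100 µM methyl jasmonate (called JA in the labels and here), JA alone at 100 µM, ABA alone at 25 µM, or 0.6% ethanol (EtOH) as control. Each treatment was sampled after 24 h and after 3 h, which gives 12 groups of 2 arrays, or 3 for ABA alone. The labels do not say whether replicates came from separate cultures, and the errors and p-values given here may therefore reflect technical spread alone. In such bulk RNA, fewer cells that carry a transcript and less of it per cell cannot be told apart.

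SA is the plant hormone of defence against pathogens that feed on living tissue. It is perceived through the NPR proteins, which work with TGA transcription factors at the promoters of defence genes. ABA, the hormone of drought and osmotic stress, is widely known to oppose parts of the SA response, and jasmonate, the hormone of wounding, acts on a largely separate set of defence genes. Pairs of hormones were used in the study to see how one alters the response to another.

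The 4 arrays with combined hormones at 3 h carry titles that contradict their source name and protocol. Here they are grouped by title. JRG21 (AT3G55970), an oxygenase gene induced by jasmonate, read 10.87 ± 0.63 (SD, n = 2) log2 units in the ABA+JA arrays at 3 h so grouped and 3.00 ± 0.09 (n = 2) in the ABA+SA arrays, while it read 11.57 ± 0.58 (n = 2) with JA alone and 2.99 ± 0.14 (n = 2) in EtOH. AT2G38240, also listed as a JA marker, read 9.13 ± 0.41 with ABA+JA and 4.18 ± 0.12 with ABA+SA at 3 h, against 4.23 ± 0.12 in EtOH (n = 2 each). Both levels followed the titles. UGT76B1 (AT3G11340), which glucosylates SA, read 11.74 ± 0.31 in ABA+SA and 8.47 ± 0.61 in ABA+JA at 3 h (n = 2 each), both above the EtOH level of 5.60 ± 0.04 (n = 2). LTI30 (AT3G50970), a dehydrin gene induced by ABA, did not follow the labels on every array. At 24 h it read 5.54 and 3.60 with ABA+SA and 3.87 and 6.48 with ABA+JA, while it read 10.67, 8.45 and 10.02 with ABA alone and 3.90 and 3.70 in EtOH. With JA alone at 3 h it read 5.81 and 10.13, against 3.26 and 3.33 in EtOH. The part of these arrays in the results was not tested. Values without 1 of them are given for several, though not all, of the results that they move. Replicates 2 and 3 of ABA alone at 3 h were nearly identical (r = 0.9975 across probe sets, against 0.9458 to 0.9885 for other replicate pairs), so their mean counts as 1 sample in each mean ± SD. All levels are log2 signals, so a difference of 1 is a doubling of signal. The table holds no detection calls, and a low level cannot be told from background, so a difference from such a level is one of signal and its size is inexact. Levels of different probe sets are not compared with each other.

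AT1G19960 was high on every array with SA. It read 11.16 and 10.53 with ABA+SA at 24 h and 10.13 and 9.72 with SA alone, against 3.58 and 3.15 in EtOH. At 3 h it read 7.46 and 7.79 with ABA+SA and 9.67 and 8.96 with SA alone, against 3.61 and 3.44 in EtOH. The 8 arrays with SA all lay above the other 18, which spanned 2.45 to 3.61 with a median of 3.09, and the lowest SA array stood 3.85 log2 units above the highest of the others. With SA alone the level exceeded EtOH by 6.56 ± 0.29 (SE of the fit) at 24 h and by 5.79 ± 0.29 at 3 h.

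AT1G15640 read 9.86 and 9.69 with SA alone at 24 h, against 4.47 and 4.20 in EtOH, a difference of 5.44 ± 0.25 (SE). At 3 h it read 6.84 and 6.66 with SA alone, against 3.54 and 3.93 in EtOH, a difference of 3.02 ± 0.25. With ABA+SA it read 9.92 and 9.46 at 24 h, which overlapped SA alone, and 4.66 and 4.40 at 3 h. The ABA+SA arrays at 3 h lay among the 18 arrays without SA, which spanned 3.36 to 5.08 with a median of 4.25. For AT1G15640 the 8 arrays with SA therefore did not separate from the others.

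AT5G41280 was high with SA alone and lower with ABA+SA at both times. It read 8.86 and 9.24 with SA alone at 24 h, against 3.26 and 3.35 in EtOH, a difference of 5.74 ± 0.34 (SE). At 3 h it read 7.11 and 7.40 with SA alone, against 3.73 and 3.96 in EtOH, a difference of 3.41 ± 0.34. With ABA+SA it read 5.59 and 7.06 at 24 h, the widest spread of any of its groups, and 4.63 and 4.07 at 3 h. The lower ABA+SA array at 3 h was only 0.02 above the highest of the 18 arrays without SA, whose levels ran from 3.16 to 4.05 with a median of 3.63.

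AT4G14390 was also high on every array with SA. It read 8.89 and 9.83 with SA alone at 24 h, against 5.51 and 5.93 in EtOH, a difference of 3.64 ± 0.38 (SE). At 3 h it read 8.40 and 7.54 with SA alone, against 5.17 and 5.01 in EtOH, a difference of 2.88 ± 0.38. The pair of arrays with ABA+SA gave 8.42 and 8.74 at 24 h. At 3 h that pair gave 6.57 and 6.54. All 8 arrays with SA were above the other 18, by 0.60 at the narrowest point, and those 18 ran from 4.51 to 5.93 with a median of 5.002.

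**Figure D1:**
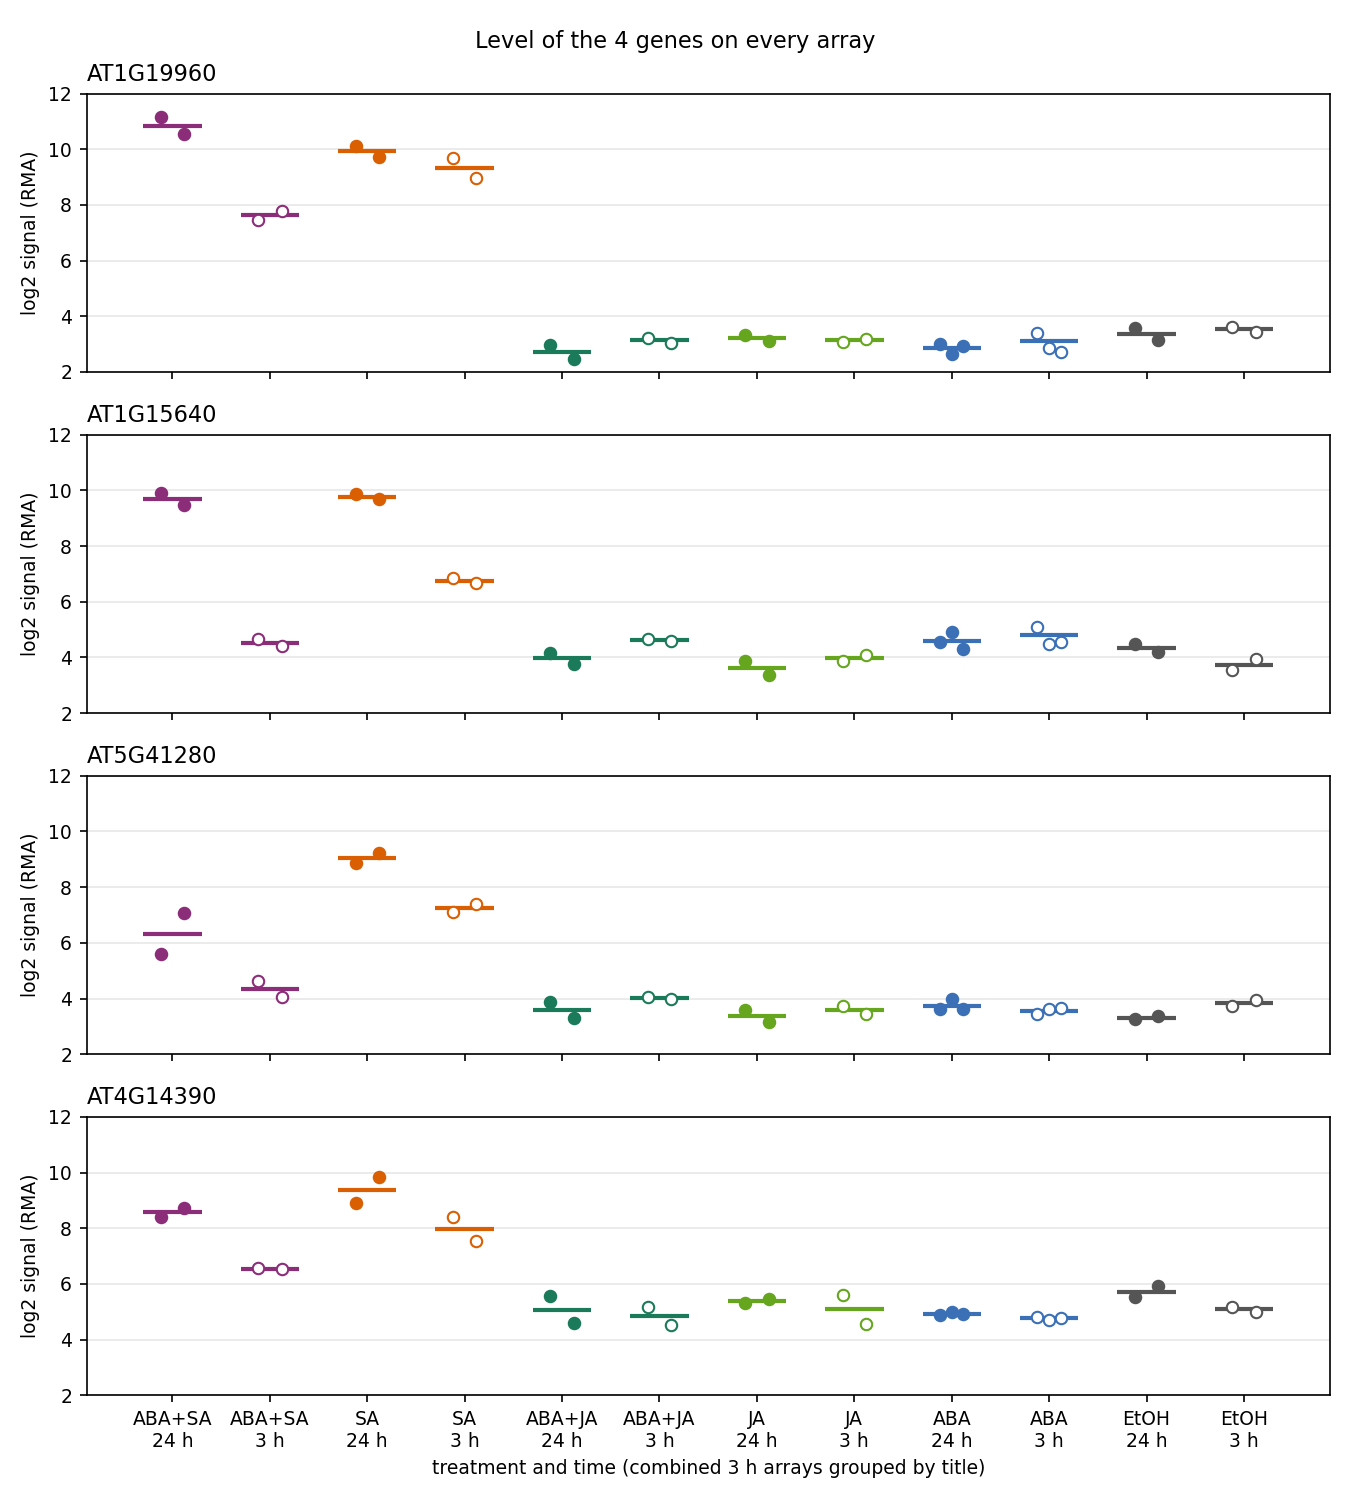
Log2 signal (RMA, vertical axis) of each gene on all 26 arrays by treatment and time, with filled points for 24 h, open points for 3 h and a bar at each group mean (replicates 2 and 3 of ABA at 3 h averaged first). SA arrays of AT1G19960 lie at 7.46 or higher and all others at 3.61 or lower, whereas the ABA+SA arrays of AT1G15640 at 3 h, at 4.66 and 4.40, lie among the arrays without SA.

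Over the whole array, 25 probe sets, or 0.11% of all, had every one of the 8 arrays with SA above every one of the 18 without. Of these, 12 match 1 named gene, and AT1G19960, AT4G14390 and AT5G41280 are among the 12. Of the 12, AT1G19960, AT5G03350 and UGT76B1 had gaps over 1 log2 unit, at 3.85, 2.07 and 1.40. Since the genes were chosen for their level with SA, their place in this count describes them and supports nothing further.

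The order of the 12 group means differed among the genes at its top. For AT1G19960 it ran ABA+SA at 24 h (10.84), SA at 24 h (9.93), SA at 3 h (9.32) and ABA+SA at 3 h (7.63), with no overlap of arrays between neighbours, and then EtOH at 3 h (3.53). From there down to ABA+JA at 24 h (2.71), neighbouring groups overlapped throughout. For AT1G15640 the order ran SA at 24 h (9.78) and ABA+SA at 24 h (9.69), which overlapped, then SA at 3 h (6.75), and then ABA alone at 3 h (4.80), with ABA+SA at 3 h (4.53) only in the seventh place. For AT5G41280 it ran SA at 24 h (9.05), SA at 3 h (7.25), ABA+SA at 24 h (6.32) and ABA+SA at 3 h (4.35), each clear of the next by its arrays. For AT4G14390 it ran SA at 24 h (9.36), ABA+SA at 24 h (8.58), SA at 3 h (7.97) and ABA+SA at 3 h (6.55), also without overlap, and EtOH at 24 h (5.72) came next. Among the groups without SA, neighbours in the order overlapped, except EtOH at 24 h above JA at 3 h for AT1G15640, ABA+JA above EtOH at 3 h for AT5G41280, and EtOH above JA at 24 h and JA at 24 h above EtOH at 3 h for AT4G14390.

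With SA alone, AT1G15640 was higher at 24 h than at 3 h by 3.03 ± 0.25 (SE) and AT5G41280 by 1.80 ± 0.34, while AT4G14390 was higher by 1.39 ± 0.38 and AT1G19960 by 0.61 ± 0.29. Leaving out 1 array gave 0.92 (without replicate 2 of SA at 24 h) to 1.86 for AT4G14390, and 0.26 (without replicate 2 of SA at 3 h) to 0.96 (without replicate 1) for AT1G19960. In EtOH the same comparison gave 0.60 ± 0.25 for AT1G15640, -0.54 ± 0.34 for AT5G41280, 0.63 ± 0.38 for AT4G14390 and -0.16 ± 0.29 for AT1G19960. Taken over the EtOH level of its own time, the SA difference was larger at 24 h by 2.43 ± 0.36 for AT1G15640 and 2.33 ± 0.48 for AT5G41280, and by 0.77 ± 0.40 for AT1G19960 and 0.76 ± 0.53 for AT4G14390. For AT1G19960 and AT4G14390 a single array moves this value. Leaving out 1 array gave 0.42 (without replicate 2 of SA at 3 h) to 1.12 for AT1G19960, and 0.29 (without replicate 2 of SA at 24 h) to 1.23 for AT4G14390.

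With ABA+SA every one of the 4 genes was higher at 24 h than at 3 h. The difference was 5.16 ± 0.25 (SE) for AT1G15640, 3.22 ± 0.29 for AT1G19960, 2.03 ± 0.38 for AT4G14390 and 1.98 ± 0.34 for AT5G41280. That of AT5G41280 was 2.71 without replicate 1 and 1.24 without replicate 2 of ABA+SA at 24 h. With the 3 h arrays grouped by source name, the difference was 7.71 for AT1G19960 and 3.74 for AT4G14390, and 5.06 for AT1G15640 and 2.31 for AT5G41280. In the groups without SA, the 24 h level differed from the 3 h level by -0.67 to 0.63 over the 4 genes, both ends included.

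Set against SA alone at the same time, ABA+SA gave lower levels of all 4 genes at 3 h. The difference was -2.90 ± 0.34 (SE) for AT5G41280, -2.22 ± 0.25 for AT1G15640, -1.69 ± 0.29 for AT1G19960 and -1.42 ± 0.38 for AT4G14390. At 24 h the genes parted. AT5G41280 was still lower with ABA+SA, by -2.72 ± 0.34, whereas AT1G15640 differed by -0.09 ± 0.25 with overlapping arrays (0.14 without replicate 2 and -0.32 without replicate 1 of ABA+SA). AT1G19960 was higher with ABA+SA by 0.92 ± 0.29, with both ABA+SA arrays above both SA arrays, and by 0.60 without replicate 1 of ABA+SA. AT4G14390 was lower by -0.78 ± 0.38, a value that was -0.31 without replicate 2 of SA at 24 h.

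The contradictory labels bear on these 3 h values unequally. For AT1G15640 and AT5G41280 both sets of combined arrays at 3 h were low, the ABA+JA arrays reading 4.66 and 4.60 for AT1G15640 and 4.05 and 3.99 for AT5G41280. Grouping by source name in place of title left their differences between ABA+SA and SA at -2.12 and -3.23. For AT1G19960 and AT4G14390 the same exchange gave -6.18 and -3.13, because the arrays titled ABA+JA were near the EtOH level. The 24 h values do not depend on this choice.

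Comparison with ABA alone shows the difference that SA made in cells that also had ABA. At 24 h, ABA+SA exceeded ABA by 7.98 ± 0.26 (SE) for AT1G19960, 5.11 ± 0.23 for AT1G15640, 3.65 ± 0.34 for AT4G14390 and 2.58 ± 0.31 for AT5G41280. Beside these stand 6.56, 5.44, 3.64 and 5.74 for SA over EtOH in the same order of genes. On leaving out 1 array, ABA+SA minus ABA at 24 h ran from 1.85 to 3.32 for AT5G41280. The lower end is without replicate 2 of ABA+SA and the upper end without replicate 1. For AT1G19960 it ran from 7.66 to 8.29. At 3 h, ABA+SA exceeded ABA by 4.63 ± 0.26 for AT1G19960, 1.79 ± 0.34 for AT4G14390 and 0.77 ± 0.31 for AT5G41280, and AT1G15640 gave -0.18 ± 0.23. Leaving out 1 array gave -0.31 to 0.01 for AT1G15640, and 0.50 (without replicate 1 of ABA+SA) to 1.05 for AT5G41280. With the 3 h arrays grouped by source name, the values were 0.14 for AT1G19960, 0.08 for AT4G14390, 0.44 for AT5G41280 and -0.08 for AT1G15640. At 3 h SA exceeded EtOH by 5.79 for AT1G19960, 2.88 for AT4G14390, 3.41 for AT5G41280 and 3.02 for AT1G15640, each above its value with ABA. For AT5G41280 and AT1G15640 the SA difference was smaller with ABA than without at both times. For AT1G15640 at 24 h it was smaller only by a little (5.11 against 5.44).

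**Figure D2:**
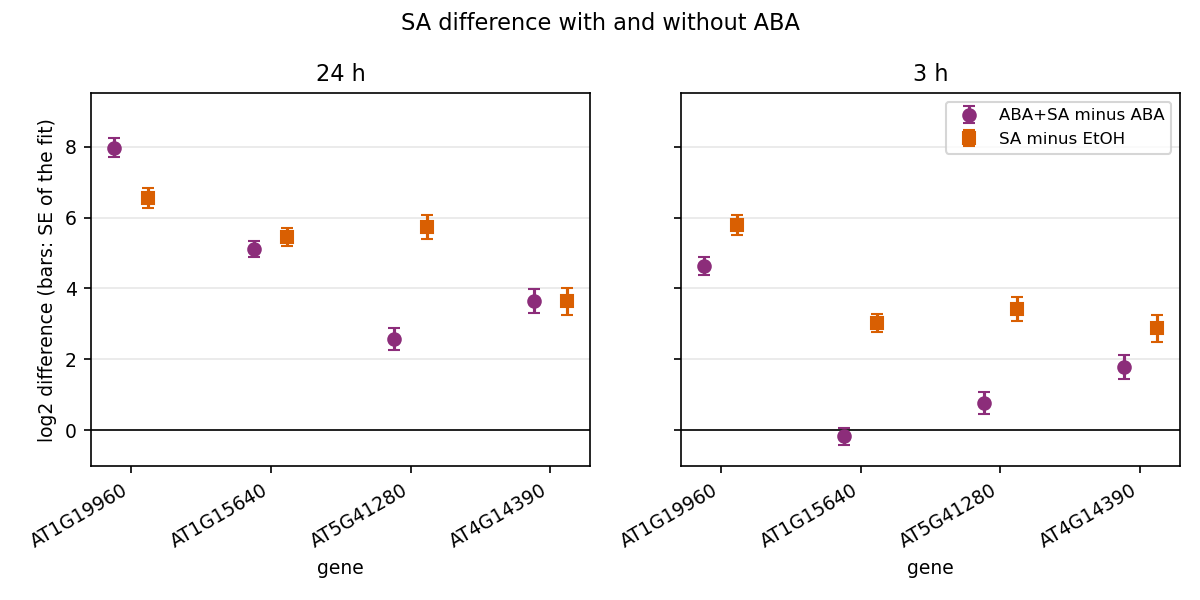
Log2 difference (vertical axis, bars are SE of the fit) made by SA in each gene in the presence of ABA (circles, ABA+SA minus ABA) and in its absence (squares, SA minus EtOH), at 24 h (left) and 3 h (right). At 3 h the circles lie below the squares for all 4 genes, and at 24 h this is so by a wide margin for AT5G41280 alone, at 2.58 with ABA and 5.74 without.

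In groups without SA by title, only AT1G15640 passed a test. The 4 genes were tested in 6 comparisons with EtOH, which share the controls of their time, with limma over all probe sets and a Benjamini-Hochberg adjusted p under 0.05 as the threshold. Of the 24 tests, 2 passed, both for AT1G15640 at 3 h. With ABA alone at 3 h, a comparison in which 18.1% of all probe sets passed, AT1G15640 read 5.08, 4.49 and 4.55, against 3.54 and 3.93 in EtOH. The arrays did not overlap, and AT1G15640 rose by 0.98 ± 0.23 (SE, limma adjusted p = 0.00683). The fit counted the near-identical replicates 2 and 3 of ABA as separate arrays, which may make this error and p too small. This call was lost without replicate 1 of EtOH at 3 h (0.78, limma adjusted p = 0.114) and when only these groups were fitted (adjusted p = 0.0552).

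The arrays titled ABA+JA at 3 h are ABA+SA by source name, so the absence of SA in this comparison is not certain. With ABA+JA at 3 h, where 23.3% of all probe sets passed, AT1G15640 read 4.66 and 4.60, again above both EtOH arrays. It rose by 0.90 ± 0.25 (SE; limma adjusted p = 0.0156), a call lost without replicate 1 of EtOH (adjusted p = 0.154) or without replicate 1 or 2 of ABA+JA (adjusted p = 0.0821 and 0.051). With the 3 h arrays grouped by source name in place of title, the differences were 0.80 for AT1G15640, 4.10 for AT1G19960 and 1.46 for AT4G14390. These are given with no test, since the arrays then entered are those titled ABA+SA. With JA alone at 3 h AT1G15640 read 3.86 and 4.10, which overlapped the EtOH arrays, and the change of 0.25 ± 0.25 did not pass (limma adjusted p = 0.9999).

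None of the other 22 tests passed, with changes between -0.79 and 0.43, standard errors of 0.23 to 0.38 and limma adjusted p from 0.119 to 0.9999. The shares of all probe sets that passed were 18.3% with ABA at 24 h, 4.88% with JA at 24 h, 0.374% with JA at 3 h and 9.25% with ABA+JA at 24 h. Of the 22 changes, 16 were negative. They come from 4 genes and share the EtOH arrays of their time, so their signs are not independent. The share of negative changes over all probe sets was not counted. Without replicate 2 of JA at 3 h, the array with high LTI30, the 4 changes with JA lay between -0.45 and 0.52 and none passed (limma adjusted p = 0.9997). With ABA+JA at 24 h AT5G41280 changed by 0.27 ± 0.34, and leaving out 1 array gave -0.01 to 0.56. AT1G19960 was lower than EtOH in all 6 comparisons, most with ABA+JA at 24 h (-0.66 ± 0.29, limma adjusted p = 0.173), where the arrays read 2.96 and 2.45, against 3.58 and 3.15 in EtOH. AT4G14390 read 4.89, 4.99 and 4.92 with ABA at 24 h, against 5.51 and 5.93 in EtOH, a difference of -0.79 ± 0.34 (limma adjusted p = 0.126) that passed only when these groups were fitted alone (adjusted p = 0.0379). A test that did not pass does not show that the level was equal.

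**Figure D3:**
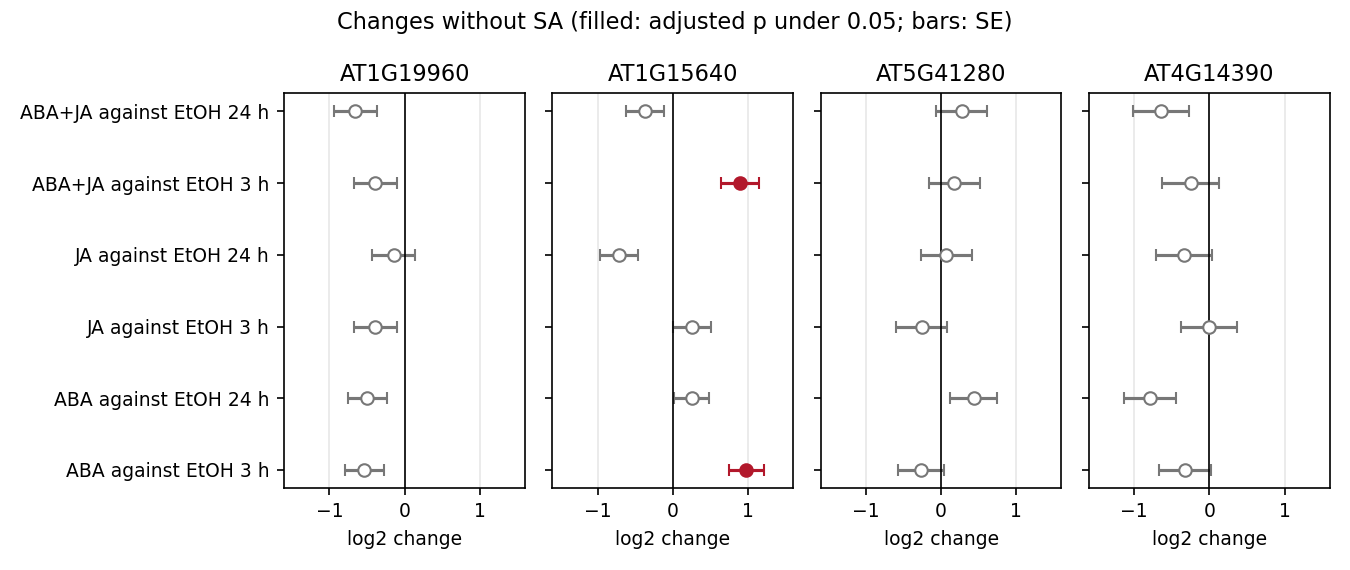
Log2 change (horizontal axis, bars are SE) of each gene in the 6 comparisons with EtOH in which no array had SA by its title. Filled points passed the limma adjusted p threshold of 0.05. Only AT1G15640 with ABA+JA and with ABA at 3 h is filled, at 0.90 and 0.98, and all other points lie between -0.79 and 0.43.

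Other genes of the SA pathway give the setting. Of 40 genes listed for the synthesis, perception and response to SA, 7 were matched by a probe set of their own. Of all probe sets, 8807 carry no gene name here, so a gene without a value may still be on the array. With SA alone at 24 h, where 0.374% of all probe sets passed, 3 of the 7 rose, with a list median of 0.24 against 0.00 over all probe sets. They were the lectin-like gene AT5G03350 (6.90 ± 0.39, SE; limma adjusted p = 5.01e-09), UGT76B1 (6.02 ± 0.45, adjusted p = 2.2e-07) and GRX480, a glutaredoxin that binds TGA factors (2.35 ± 0.46, adjusted p = 0.0256). GRX480 also rose with JA at 24 h (2.31 ± 0.46, limma adjusted p = 0.00876). The GRX480 call was lost with quantile scaling (adjusted p = 0.0583), without either EtOH array (adjusted p = 0.137 and 0.231), without replicate 1 of SA (0.558) and when only these groups were fitted (0.338). SAG101, WRKY53, UGT74F1 and BSMT1 had changes between -0.35 and 0.24. At 3 h, where 0.141% passed, AT5G03350 and UGT76B1 rose, with a list median of 0.64 against 0.00 over all probe sets. That median is the value of WRKY53 alone (0.64 ± 1.19, SE, limma adjusted p = 0.9997). The 5 genes that did not pass had changes between -0.01 and 0.67. Both lists of calls come from comparisons on which the 4 genes were chosen. The list of 40 genes was itself chosen with earlier results of these data known. Its calls, here and with ABA+SA against SA, therefore describe the setting and support nothing further.

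With ABA+SA against SA 1 of the 7, AT5G03350, fell at both times. It read 8.01 ± 0.28 (SD, n = 2) with ABA+SA and 11.16 ± 0.39 (n = 2) with SA alone at 24 h, a fall of -3.14 ± 0.39 (SE; limma adjusted p = 0.00023), and 7.60 ± 0.88 (n = 2) with ABA+SA and 11.16 ± 0.82 (n = 2) with SA alone at 3 h, a fall of -3.56 ± 0.39 (limma adjusted p = 1.35e-05). The share of all probe sets that passed was 2.71% at 24 h and 13.3% at 3 h. UGT76B1 did not pass, at -0.59 ± 0.45 at 24 h and 0.91 ± 0.45 at 3 h. The 6 genes other than AT5G03350 passed at neither time (lowest limma adjusted p = 0.111 at 24 h and 0.093 at 3 h). At 24 h the 7 changes ran from -3.14 to -0.16, with GRX480 at -1.51 ± 0.46 and WRKY53 at -1.83 ± 1.19. With ABA+SA and SA alone at 24 h, BSMT1 read 2.34 and 2.50 and UGT74F1 3.51 and 3.81. Such low levels cannot be told from background, so the shared sign does not show a fall of the list. At 3 h WRKY53 was at -3.07 ± 1.19 and SAG101 at -0.90 ± 0.34, while UGT76B1, GRX480, UGT74F1 and BSMT1 had positive changes. Beside the falls of AT5G03350 stand the values already given for AT5G41280, -2.72 at 24 h and -2.90 at 3 h.

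AT4G14390 stands next to ACD6 (ACCELERATED CELL DEATH 6) in the order of protein-coding genes. No probe set matched ACD6 alone, a gene known for SA-dependent cell death and defence, so it has no value here. Of 8 genes, ACD6 included, listed for ankyrin repeats and membrane segments, 3 were measured. None passed with SA against EtOH at either time (0.374% of all probe sets passed at 24 h and 0.141% at 3 h), with changes of -0.30 to 0.15 at 24 h and -0.27 to 0.09 at 3 h in limma, and 0 had an unadjusted p under 0.05. With ABA added to SA 0 of the 3 passed either, and 1 had an unadjusted p under 0.05 at 3 h. Group means of AT4G03500 ran from 2.99 to 3.66 and those of AT4G03450 from 3.24 to 3.83, below the array medians of 4.89 to 5.29. Such low levels cannot be told from background, so these values do not show whether these genes respond. Of a list of 32 cysteine-rich (DUF26) genes, 0 were matched by a probe set of their own.

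Genes beside the 4 in annotation order were looked at for the same contrasts. Of the 16 genes 1 or 2 places away from the 4, 7 were measured, 3 beside AT1G19960, 3 beside AT4G14390, 1 beside AT5G41280 and 0 beside AT1G15640. With SA against EtOH, where 0.374% of all probe sets passed at 24 h and 0.141% at 3 h, 0 of the 7 passed in limma and 0 had an unadjusted p under 0.05, with changes of -0.32 to 0.25 at 24 h and -0.25 to 0.28 at 3 h. With ABA+SA against SA at 3 h, where 13.3% of all probe sets passed, 1 of the 7 passed. AT1G19970, the gene next to AT1G19960, rose by 3.67 ± 0.33 (SE; limma adjusted p = 2.19e-06), while AT1G19960 was 1.69 lower there.

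Patterns over the 12 group means were alike among the 4 genes, with Pearson's r between 0.8796 (AT1G19960 with AT5G41280) and 0.9631 (AT1G19960 with AT4G14390). These correlations describe genes that were all chosen for high levels with SA, and the points share arrays and controls. Among named genes whose group means spanned 2 log2 units or more, 9 different genes took the 12 places as the 3 most alike. AT1G19960 was most like AT3G26550 (r = 0.9734), AT3G09010 (0.9531) and AT1G80580 (0.9431). AT1G15640 was most like IAGLU (AT4G15550; r = 0.961), which glucosylates the auxin indole-3-acetic acid, then AT1G44050 (0.9477) and AT1G24320 (0.947). AT5G41280 was most like AT5G03350 (r = 0.9445), AT3G02770 (0.8941) and cwINV6 (AT5G11920; 0.8868), a fructan-degrading enzyme. AT4G14390 was most like AT3G26550 (r = 0.9572), AT3G02770 (0.9309) and AT5G03350 (0.9286).

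IAGLU, like AT1G15640, was low with ABA+SA at 3 h. It read 7.75 ± 0.31 with ABA+SA and 7.13 ± 0.40 with SA alone at 24 h, against 4.06 ± 0.44 in EtOH (SD, n = 2 each). At 3 h it read 4.51 ± 0.66 with ABA+SA and 5.92 ± 0.40 with SA alone, against 4.43 ± 0.07 in EtOH (n = 2 each). AT3G26550 was as high with ABA+SA as with SA alone at 3 h, at 4.75 ± 0.04 with ABA+SA and 4.78 ± 0.46 with SA alone, against 3.06 in both EtOH arrays (n = 2 each). No tests are given for these genes, which were picked by the same levels.

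**Figure D4:**
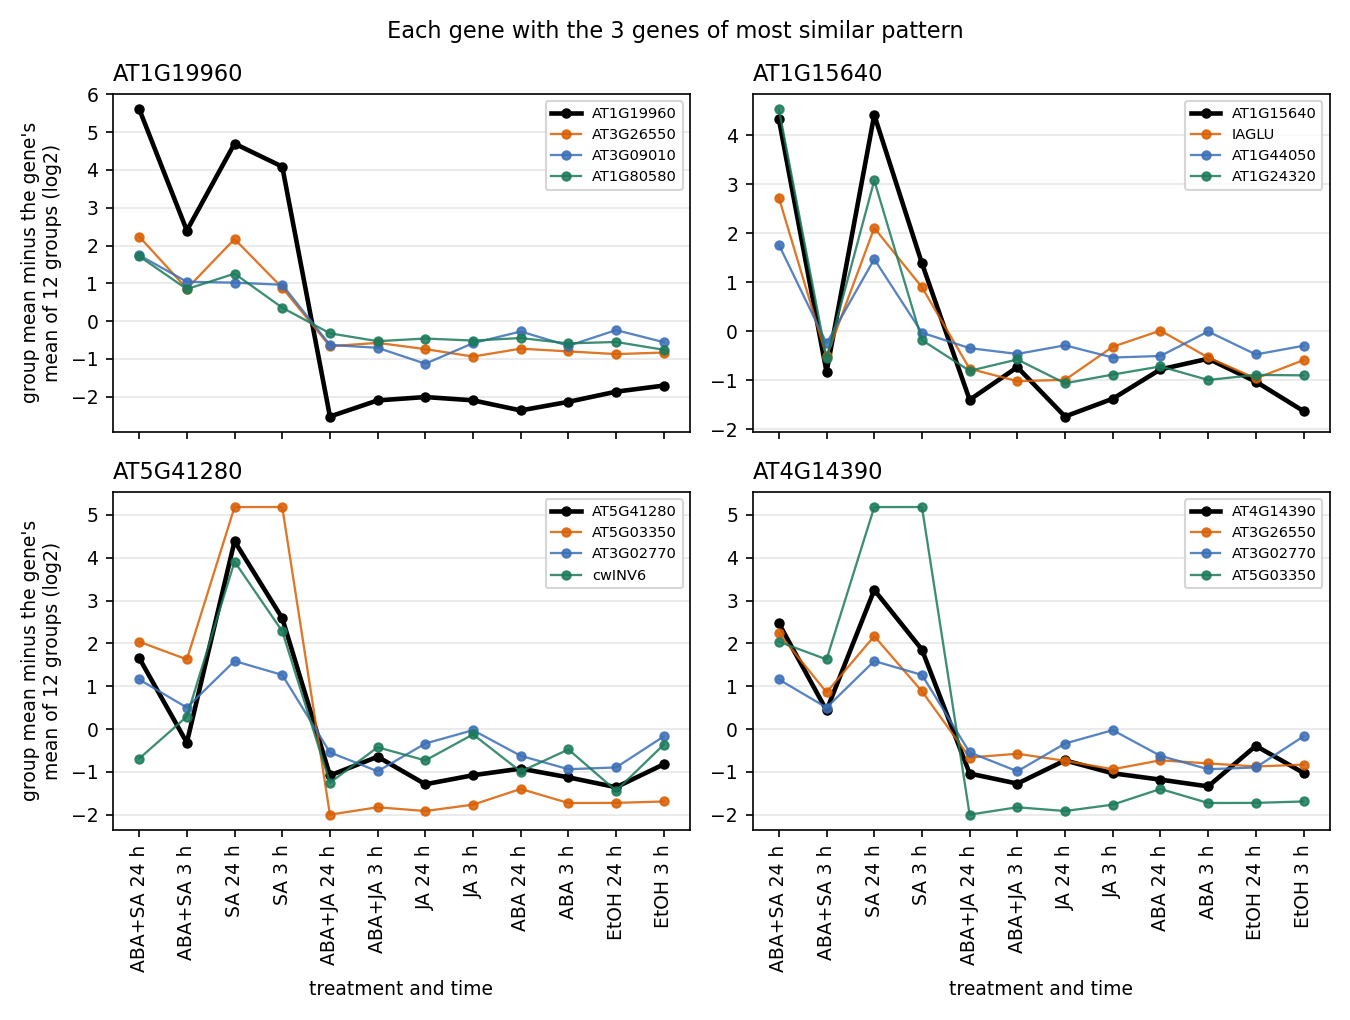
Group mean minus the gene's own mean over the 12 groups (vertical axis, log2 units) for each of the 4 genes (black) and the 3 named genes of highest Pearson correlation with it (colours). AT1G15640 and IAGLU both drop to the level of arrays without SA in ABA+SA at 3 h, and the IAGLU curve correlates with AT1G15640 at r = 0.961.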

How the data were processed

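Levels were measured on 26 single-channel arrays of T87 cells. The deposited values are log2 signals, made by the authors with RMA, per the submitters' processing notes (version not given in the sources used here), and were used unchanged. Array medians were 4.89 to 5.29, and the number of arrays limits precision. Of the probe sets, 13436 matched 1 gene of the annotation and 503 several.

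Arrays were grouped by title, and the 12 group means were estimated in limma 3.58.1 (R 4.3.3) from all arrays, ABA replicates 2 and 3 at 3 h included, with p-values adjusted over all probe sets. The procedure was run on simulated data with independent noise on each array. Those data had no near-identical arrays and no deviations shared by replicate number. The run therefore does not show that the errors given here hold. The 4 genes and the gene lists were chosen with earlier results of these data known. Named genes are the 4, the 3 most correlated with each, list genes that passed with SA or, up to 4 a list, changed most at 24 h, the hormone markers, and genes 1 or 2 places away. Of 9 hormone marker genes listed to check the labels 5 were measured (JRG21, AT2G38240, LTI30, UGT76B1 and GRX480). Gene sequences and promoters were not used here. Alternatives were fits of the compared groups alone, a trended and robust variance prior, quantile scaling, leaving out the dimmest 25% of probe sets (the 4 genes kept), averaging the near-identical arrays, a replicate block, grouping by source name and leaving out each array.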

Additional observations from a re-analysis of the deposited data

How the results depend on the processing

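Of 24 changes of the 4 genes tested without SA by title, neither call reversed under any alternative run, and the calls lost or gained are given with the results. Calls over all probe sets moved by over 1.5 times when only the groups compared were fitted: JA against EtOH gave 0 in limma at 24 h (1110 in the fit of all arrays; 2918 had an unadjusted p under 0.05 in the smaller fit) and 37 at 3 h (85), ABA+JA against EtOH gave 263 at 24 h (2105), and SA against EtOH gave 28 at 24 h (85). Leaving out 1 array gave 2041 to 3527 calls for ABA at 24 h and 1966 to 3850 at 3 h, 271 to 2209 for JA at 24 h and 41 to 53 at 3 h, and 835 to 1447 for ABA+JA at 24 h and 3204 to 4441 at 3 h. For ABA+SA against SA it gave 170 to 285 at 24 h and 1714 to 1777 at 3 h. For SA minus EtOH it gave 5.44 to 6.14 for AT1G19960 at 3 h, and 3.17 to 4.11 at 24 h and 2.44 to 3.31 at 3 h for AT4G14390. For ABA+SA minus SA it gave 0.60 to 1.23 at 24 h and -2.04 to -1.34 at 3 h for AT1G19960, -3.46 to -1.99 at 24 h for AT5G41280, and -1.25 to -0.31 at 24 h and -1.85 to -0.99 at 3 h for AT4G14390. Grouping by source name gave -6.18 for AT1G19960 and -3.13 for AT4G14390 in ABA+SA minus SA at 3 h, and in ABA+JA minus EtOH at 3 h 4.10 and 1.46, given with no test because those arrays are titled ABA+SA. The cause of these shifts, beyond fewer arrays or other groups, was not tested. Arrays with the same replicate number deviated together at r over 0.1 in 32 of 66 pairs of groups (-0.40 to 0.70), with 0.70 at 24 h and 0.49 at 3 h for SA with EtOH and 0.69 at 24 h and 0.39 at 3 h for ABA+SA with SA. With 2 shared numbers a comparison and no label that ties them to a culture, the numbers were not taken to pair the arrays; with a replicate block 80 probe sets passed for SA at 24 h, no call of the 4 genes changed, and GRX480 lost its call (adjusted p = 0.0574).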
